A study of Mus musculus with 12 samples.

Results

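The 46 genes described here are interferon-stimulated genes: genes known to be switched on by type I, type II or type III interferon. They were taken by symbol from a written list, matched to the Ensembl identifiers of the count tables through the GENCODE vM21 annotation, and all 46 were found among the 46603 genes counted. The study sequenced RNA of blood and of spleen from wild-type (WT) C57/Bl6 mice and from C57/Bl6 mice without nuclear myosin 1 (NM1 KO), a nuclear form of the class I myosin Myo1c. Blood and spleen of each genotype made up 4 groups of 3 libraries, and all mice were 8 months old. No infection, interferon or drug is named in the labels of any group, so the mice are taken here as untreated. The labels name no promoter, Cre or allele for the KO and do not state whether each library came from a separate mouse, so p-values measure the spread between these libraries.

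Type I and type III interferons are secreted when cells sense foreign nucleic acid. Type I interferons bind the receptor pair Ifnar1 and Ifnar2 and act through the kinases Jak1 and Tyk2 on a complex that holds Stat2 and Irf9 and binds the interferon-stimulated response element (ISRE) in promoters. Type II interferon, Ifng, acts through the gamma-activated site (GAS). Irf7 is both a product of the response and a factor that raises further interferon production, and low constant signalling keeps some of these genes on in blood and spleen cells without infection.

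Promoters are shown first, to give the response elements beside the values. They are those of the 3 members with the largest mean shares of the summed expression among members with an ISRE match. The highest ranked member without a match is added. Ifi209, Irf9 and Irf7 took larger mean shares than Bst2 but had no ISRE match in their listed promoters and are not shown. Of the 46 members, 35 had a promoter in the RefSeq table for GRCm38.p6, which gives 250 bases before to 50 bases after each start. Mx1, Mx2, Oas2, Usp18, Dhx58, Zbp1, Ifi204, Iigp1, Ifi27l2a, Rtp4 and Parp14 had none. The ISRE was searched as GAAANNGAAA and the GAS as TTCNNNGAA, each on both strands, and overlapping matches were counted separately. An ISRE match was found in 23 of the 35 members (65.7%), against 3.99% of all 27025 genes in the table, and a GAS match in 7 of the 35 (20.0%), against 9.55% of all genes. Capitals mark the ISRE matches in Rsad2 (chr12:26456403-26456702, minus strand), Isg15 (chr4:156200769-156201068, minus strand) and Bst2 (chr8:71537423-71537722, minus strand), and the GAS match in Isg20 (chr7:78913174-78913473, plus strand), the most abundant member without an ISRE match in any of its 3 listed promoters.
Rsad2: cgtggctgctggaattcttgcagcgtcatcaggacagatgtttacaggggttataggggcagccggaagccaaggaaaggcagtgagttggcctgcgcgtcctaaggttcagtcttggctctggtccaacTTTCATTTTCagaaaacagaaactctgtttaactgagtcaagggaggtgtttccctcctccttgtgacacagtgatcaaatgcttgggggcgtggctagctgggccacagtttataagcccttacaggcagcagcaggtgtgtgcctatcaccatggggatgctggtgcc
Isg15: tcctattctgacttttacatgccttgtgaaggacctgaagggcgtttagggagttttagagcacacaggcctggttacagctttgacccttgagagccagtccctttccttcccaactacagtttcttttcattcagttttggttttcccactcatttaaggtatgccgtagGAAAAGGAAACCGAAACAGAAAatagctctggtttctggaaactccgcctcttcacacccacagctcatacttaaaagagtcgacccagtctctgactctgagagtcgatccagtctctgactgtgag
Bst2: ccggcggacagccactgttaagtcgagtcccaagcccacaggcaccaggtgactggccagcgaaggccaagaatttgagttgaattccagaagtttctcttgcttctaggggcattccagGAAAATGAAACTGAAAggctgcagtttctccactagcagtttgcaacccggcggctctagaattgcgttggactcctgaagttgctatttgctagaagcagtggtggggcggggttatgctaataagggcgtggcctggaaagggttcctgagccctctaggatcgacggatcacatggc
Isg20: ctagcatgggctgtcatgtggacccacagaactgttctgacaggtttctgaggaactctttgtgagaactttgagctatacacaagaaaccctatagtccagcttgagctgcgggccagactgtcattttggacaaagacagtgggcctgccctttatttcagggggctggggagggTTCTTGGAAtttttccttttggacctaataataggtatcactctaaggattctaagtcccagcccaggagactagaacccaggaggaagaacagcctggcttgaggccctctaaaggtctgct
Isg15 had 3 overlapping ISRE matches, starting at bases -78, -72 and -66 from the start site, and Bst2 had 2, starting at -130 and -124. The single ISRE match of Rsad2 started at -120 and lies on the opposite strand, and the GAS match of Isg20 started at -73. Bst2 also had a GAS match at -136 that overlaps its ISRE letters. A match describes the letters only and does not show that a factor binds there.

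The libraries fell into a pair of kinds that cut across the labels. Globin genes took 48.9% to 56.1% of counts in 6 libraries, here called globin-rich, and 0.846% to 5.90% in the other 6, called globin-poor. The first kind comprised blood WT 01, spleen WT 02, spleen WT 04, blood KO 02, blood KO 03 and spleen KO 03 by their labels, so every group held both kinds. Total counts were 9.32 to 12.1 M (M for mega) in the globin-rich and 23.1 to 28.2 M in the globin-poor libraries. All 12 red pulp macrophage markers together reached 109 to 376 in the globin-rich libraries and 1547 to 2340 in the globin-poor ones, in counts per M counts with globin left out of the total (CPM), and Vcam1, C1qa, C1qb, C1qc and Mertk had 0 counts in some globin-rich libraries. Of these markers 10 of 12 were lower in every globin-rich library, as were 49.8% of the 14545 genes that averaged 1 CPM or more. Their sum was 151 in spleen WT 02, 137 in spleen WT 04 and 376 in spleen KO 03, all globin-rich, against 1547 to 2127 in the globin-poor libraries labelled blood. Myo1c, whose other forms share most of their exons with NM1, was 58.5 to 179 in WT and 128 to 200 in KO globin-rich libraries and 163 to 219 against 134 to 170 in globin-poor ones, and counts per gene do not separate NM1 and so do not check the genotype labels. Names such as spleen WT 02 are the labels throughout, and every value below is in CPM unless said otherwise. For a gene with 0 counts the upper limit at 95% confidence is about 3 counts, which equal 0.109 to 0.733 CPM (counting error only).

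The 46 genes together took far more of the globin-rich libraries, and a pair of genes made up most of the difference. The member sum was 14400 CPM in blood WT 01, 16747 in spleen WT 02, 15520 in spleen WT 04, 14144 in blood KO 02, 16083 in blood KO 03 and 9416 in spleen KO 03. In the globin-poor libraries it was 2843 in blood WT 03, 3324 in blood WT 04, 2210 in spleen WT 01, 2315 in blood KO 04, 2371 in spleen KO 01 and 2141 in spleen KO 04. Every globin-rich library lay above every globin-poor one, by 5.68-fold on the means, or 2.78-fold when globin was kept in the total. Rsad2 and Isg20 together made up 79.9% to 87.7% of the sum in the globin-rich libraries and 13.5% to 32.9% in the globin-poor. Without this pair the sum was 1891 to 2727 in the globin-rich and 1554 to 2319 in the globin-poor libraries, and the ranges overlapped.

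Without Isg15, Oas3 and Irf7 as well, the other 41 genes summed to 946 to 1460 in the globin-rich and 1208 to 1983 in the globin-poor libraries, and these ranges overlapped too. Rsad2 led in the globin-rich libraries other than spleen KO 03, where Rsad2 and Isg20 each took 40.0%, and 1 or 2 members were enough to reach 50% of the sum. The globin-poor libraries needed 6 to 10 members. Rsad2 still led in blood WT 03, blood WT 04, blood KO 04 and spleen KO 01, while Ifi209 and Bst2 led in spleen WT 01 and in spleen KO 04. Per kilobase of exon the order differed, since Rsad2 has 4335 exonic bases and Isg20 1860: Isg20 was highest at a mean of 2793 CPM per kb in the globin-rich libraries, then Rsad2 at 1600 and Isg15 at 807. In the globin-poor libraries Ifi27l2a was highest at 191 CPM per kb, then Isg15 at 163 and Bst2 at 136.

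**Figure D1:**
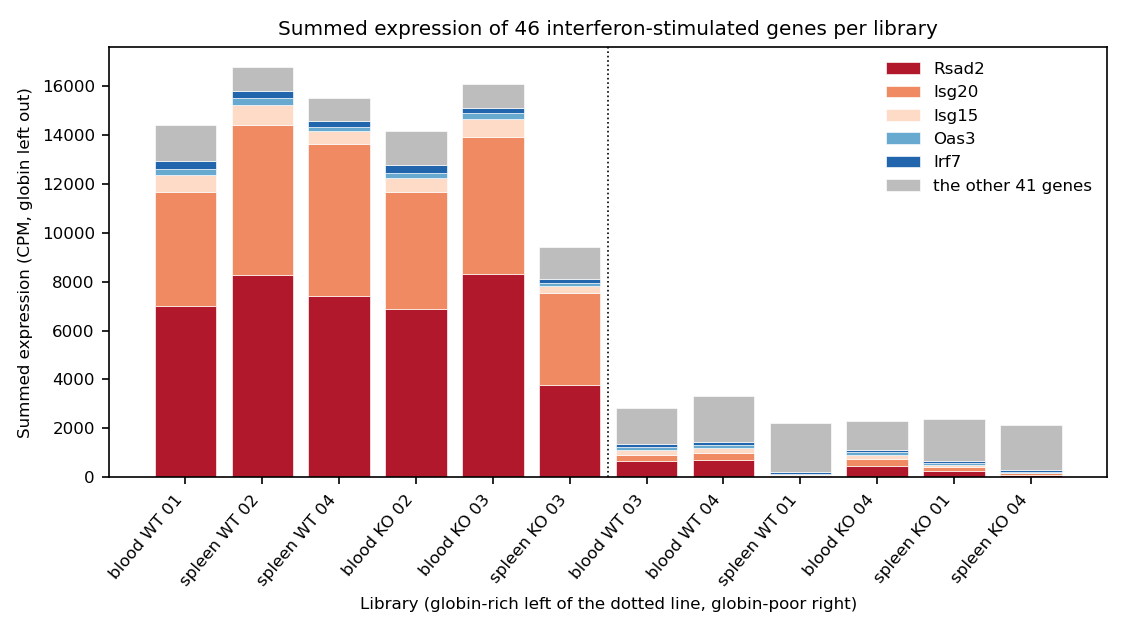
Stacked bars give the summed expression of the 46 genes in each of the 12 libraries, in CPM with globin left out of the total, split into Rsad2, Isg20, Isg15, Oas3, Irf7 and the other 41 genes. The 6 globin-rich libraries reach 9416 to 16747 and are mostly Rsad2 and Isg20, and the 6 globin-poor libraries reach 2141 to 3324.

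Rsad2, or viperin, is a radical enzyme that makes a nucleotide which stops viral RNA synthesis, and it was the most abundant member in counts. It lies on chromosome 12 (GRCm38, chr12:26442746-26456452, minus strand). Rsad2 stood at 7002 CPM in blood WT 01, 8252 in spleen WT 02, 7407 in spleen WT 04, 6889 in blood KO 02, 8297 in blood KO 03 and 3762 in spleen KO 03. Among the globin-poor libraries it stood at 653 in blood WT 03, 713 in blood WT 04, 63.3 in spleen WT 01, 484 in blood KO 04, 258 in spleen KO 01 and 92.9 in spleen KO 04. The kinds did not overlap, and the lowest globin-rich library, spleen KO 03, was still above the highest globin-poor one. Beside it, Cmpk2, a mitochondrial nucleotide kinase whose gene lies next to Rsad2 in the opposite direction (chr12:26469204-26479837, plus strand), did not follow: it was 18.3 to 45.4 in the globin-rich and 21.6 to 112 in the globin-poor libraries.

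Among the other membrane and dynamin-like restriction factors, Bst2, or tetherin, which holds budding virus at the cell surface, ran the opposite way. Bst2 was 14.6 to 26.5 in the globin-rich libraries with a median of 18.4, and 93.2 to 162 in the globin-poor with a median of 118, with no overlap. Mx1, a dynamin-like GTPase that C57BL/6 mice carry in a defective form, was 1.95 to 11.4 against 3.13 to 12.2. Its neighbour Mx2 was 0.515 to 3.94 against 2.39 to 5.08, and both overlapped between the kinds.

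The RNA-binding and degrading effectors were carried by Isg20, an exonuclease that cuts single-stranded RNA. Isg20 (chr7:78913424-78920396, plus strand) was 4671 in blood WT 01, 6166 in spleen WT 02, 6205 in spleen WT 04, 4756 in blood KO 02, 5612 in blood KO 03 and 3763 in spleen KO 03. It was 262 in blood WT 03, 292 in blood WT 04, 32.5 in spleen WT 01, 277 in blood KO 04, 174 in spleen KO 01 and 77.0 in spleen KO 04. The lowest globin-rich value was far above the highest globin-poor one, and spleen WT 01, the library with the smallest globin share, was the lowest of all.

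The oligoadenylate synthetases make the signal that activates RNase L. Oas3 (chr5:120753098-120777661, minus strand) was 232 in blood WT 01, 296 in spleen WT 02, 165 in spleen WT 04, 197 in blood KO 02, 262 in blood KO 03 and 118 in spleen KO 03. It was 118 in blood WT 03, 127 in blood WT 04, 29.0 in spleen WT 01, 97.1 in blood KO 04, 53.7 in spleen KO 01 and 29.6 in spleen KO 04. The kinds overlapped for Oas3 at spleen KO 03, which stood at the level of the globin-poor libraries labelled blood.

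Oasl2, an OAS-like protein, was 55.0 to 92.1 in the globin-rich libraries and 16.2 to 32.6 in the globin-poor, without overlap. Its neighbour Oasl1, which limits Irf7 translation, was 6.01 to 14.2 against 16.6 to 28.3, without overlap and the other way round on the CPM scale. On that scale 49.8% of all genes lay below in every globin-rich library. After the TMM scaling used below, the log2 difference of Oasl1 was -0.11 and was not called. Oas2 was 5.62 to 28.9 against 9.34 to 24.5 and Oas1a 5.26 to 11.5 against 10.3 to 21.5. Oas1g was 0 to 1.79 against 1.35 to 2.28, with 0 to 10 counts in the globin-rich libraries. Oas1a and Oas1g are near copies: 57.6% of the 50-base stretches of Oas1a and 45.7% of those of Oas1g also occur in another gene's transcripts, so their counts may be split and each is uncertain.

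The Ifit proteins bind viral RNA that lacks the host cap. Ifit1 was 19.6 to 38.4 in the globin-rich and 10.04 to 21.9 in the globin-poor libraries, and Ifit2 18.9 to 39.8 against 10.3 to 19.2. Ifit1bl1 was 7.82 to 28.3 against 4.49 to 19.2 and Ifit3 4.13 to 14.4 against 8.72 to 19.3. All of these overlapped between the kinds, as did Ifit3b at 0.435 to 4.88 against 1.19 to 4.13. Ifit3 and Ifit3b share 51.2% and 45.0% of their 50-base stretches with other transcripts, so their separate values are uncertain too.

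Isg15 is a ubiquitin-like protein that is joined to other proteins, and Usp18 is the protease that removes it and damps the type I receptor. Isg15 (chr4:156199424-156200818, minus strand) was 699 in blood WT 01, 803 in spleen WT 02, 551 in spleen WT 04, 601 in blood KO 02, 715 in blood KO 03 and 293 in spleen KO 03. It was 224 in blood WT 03, 212 in blood WT 04, 25.9 in spleen WT 01, 162 in blood KO 04, 86.9 in spleen KO 01 and 28.1 in spleen KO 04. Isg15 was higher in the globin-rich libraries without overlap. Usp18 was lower on the CPM scale, as were 49.8% of all genes, also without overlap, at 8.55 to 16.5 against 18.5 to 27.0. After the TMM scaling used below, the log2 difference of Usp18 was 0.02 and was not called.

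Of the factors that drive the response, Irf7 (chr7:141262706-141266481, minus strand) was 336 in blood WT 01, 283 in spleen WT 02, 245 in spleen WT 04, 305 in blood KO 02, 217 in blood KO 03 and 172 in spleen KO 03. It was 126 in blood WT 03, 120 in blood WT 04, 76.3 in spleen WT 01, 87.5 in blood KO 04, 86.7 in spleen KO 01 and 65.7 in spleen KO 04. Irf9, the DNA-binding partner of Stat2, was 44.0 to 78.1 in the globin-rich and 113 to 178 in the globin-poor libraries. Irf7 and Irf9 thus separated the kinds in opposite directions on the CPM scale, where 49.8% of all genes lay below in every globin-rich library. After the TMM scaling used below, the log2 difference of Irf9 was -0.15 and was not called. Stat2 overlapped, at 33.7 to 79.3 against 47.7 to 94.1.

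The sensors of foreign nucleic acid were closer between the kinds, with a joint sum of 175 to 384 in the globin-rich and 194 to 410 in the globin-poor libraries. Ifi209, a member of the DNA-binding Ifi200 family, was 67.5 to 180 against 76.4 to 184. It shares 33.7% of its 50-base stretches with other transcripts, mainly of its own family, and Ifi204 and Ifi213 share 20.0% and 15.6%. Ddx58 (RIG-I) was 27.4 to 62.3 against 35.5 to 81.6, Ifi213 22.6 to 67.2 against 24.4 to 62.6, Zbp1 18.1 to 35.8 against 17.0 to 39.4 and Ifi204 8.92 to 19.9 against 6.25 to 11.5. Without overlap, Ifih1 (MDA5) was 6.60 to 12.8 against 13.2 to 25.7 and Dhx58 (LGP2) 9.77 to 15.5 against 16.2 to 25.6. On this CPM scale 49.8% of all genes lay below in every globin-rich library. After the TMM scaling used below, the log2 differences of Ifih1 and Dhx58 were 0.37 and 0.14 and neither was called.

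The guanylate-binding proteins and immunity-related GTPases, which attack the vacuoles of intracellular microbes and respond mainly to Ifng, summed to 177 to 313 in the globin-rich and 271 to 477 in the globin-poor libraries. Irgm1 was 21.1 to 48.6 against 65.1 to 98.0 and Gbp7 20.2 to 29.3 against 33.2 to 48.1, both without overlap. Iigp1 was 0.489 to 3.47 against 12.5 to 29.5, also without overlap. On the CPM scale 49.8% of all genes lay below in every globin-rich library. After the TMM scaling used below, the log2 differences of Irgm1 and Gbp7 were -0.30 and 0.33 and neither was called. Iigp1 was called lower after that scaling, at -2.84. None of Gbp2, Gbp3, Gbp5 and Ifi47 was called after TMM scaling. On the CPM scale they were lower on the mean in the globin-rich libraries but overlapped. Igtp was the one with a higher mean there, at 38.5 to 138 against 46.9 to 116; it shares 11.8% of its 50-base stretches with Irgm2, whose exons overlap its own.

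Cxcl9 and Cxcl10, chemokines that call in activated T cells, were almost absent from the globin-rich libraries. Cxcl9 had 0 to 4 counts in each, which is 0 to 0.870 CPM, with 0 counts in blood KO 03 and spleen KO 03. In the globin-poor libraries it was 13.6 in blood WT 03, 21.6 in blood WT 04, 29.8 in spleen WT 01, 11.8 in blood KO 04, 19.3 in spleen KO 01 and 25.7 in spleen KO 04. Cxcl10 was 0.218 to 1.61 against 8.40 to 21.2. The red pulp macrophage markers given above were low in the same libraries, and their part in the chemokine levels was not tested.

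Of the remaining members, Ifi27l2a, a small hydrophobic protein of the interferon-induced Ifi27 family, was 20.9 to 47.4 in the globin-rich and 73.1 to 115 in the globin-poor libraries, without overlap. Slfn5, a Schlafen family protein, had the higher mean in the globin-rich libraries, at 17.6 to 57.5 against 3.48 to 25.1; 8.84% of its exonic bases are covered by an antisense transcript, and the strand setting of the counting is not given. Parp14 was 46.9 to 106 against 64.7 to 127, Trim30a 42.2 to 94.2 against 46.7 to 105, Rtp4 12.2 to 29.1 against 14.0 to 25.2 and Ifi44 0 to 2.23 against 1.42 to 2.39. All of these overlapped. In all, 5 of the 46 members lay above in every globin-rich library (Rsad2, Isg20, Isg15, Irf7 and Oasl2) and 12 lay below. Of the 14545 genes that averaged 1 CPM or more, 3.53% lay above and 49.8% below.

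**Figure D2:**
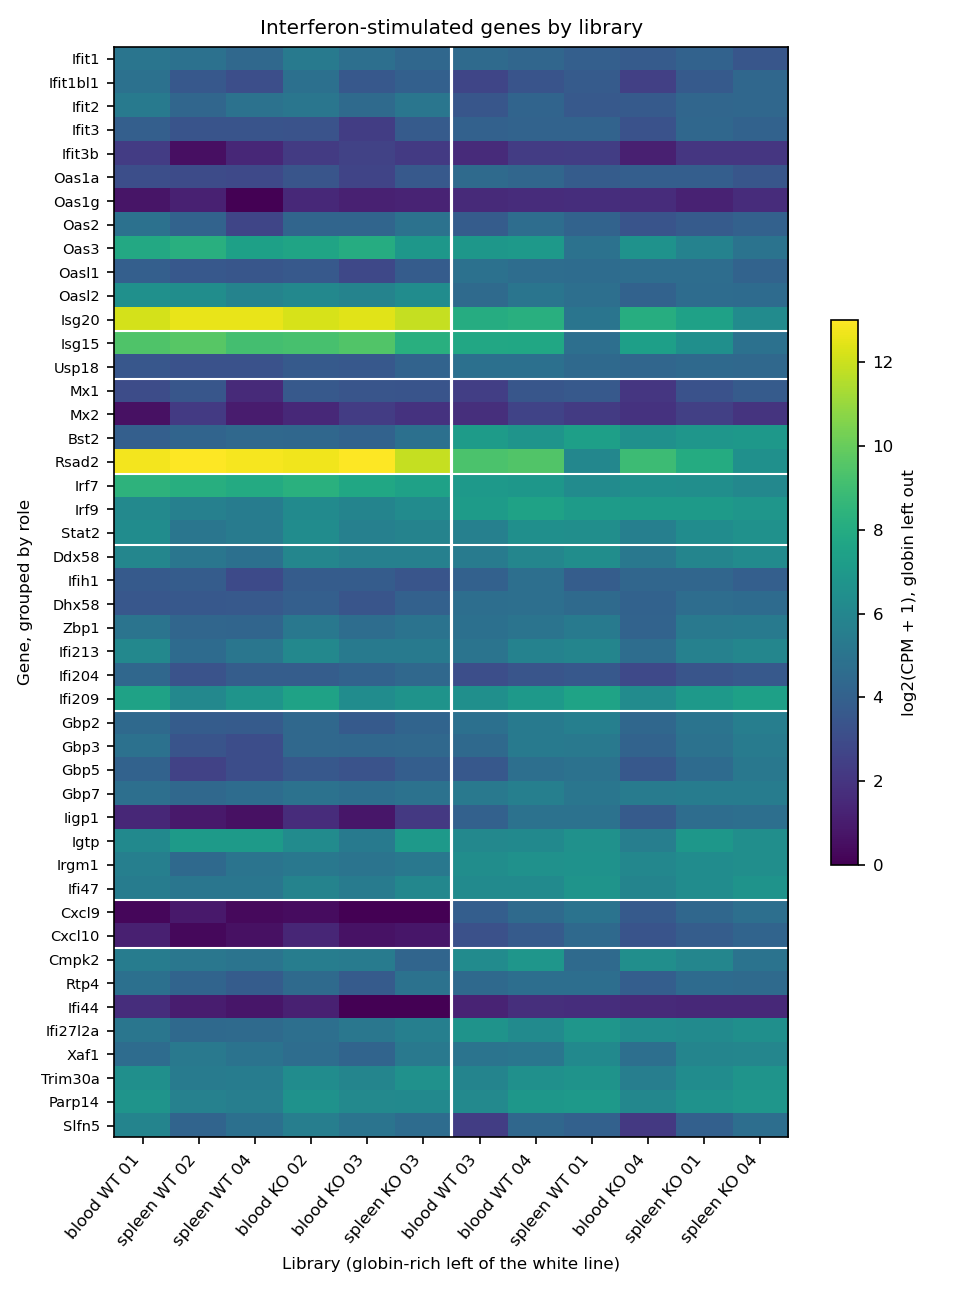
Each cell gives log2(CPM + 1), with globin left out of the total, of 1 of the 46 genes (rows, grouped by role) in 1 of the 12 libraries (columns, globin-rich left of the white line). Rsad2 and Isg20 are bright in all 6 globin-rich libraries, Isg15 and Oas3 less so, and Cxcl9, Cxcl10 and Iigp1 are near 0 there.

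The difference between the kinds was then fitted over all genes with edgeR's quasi-likelihood test, with tissue label and genotype as terms. The kinds were defined from the counts and are not groups of the study, so these p-values describe these libraries only. Of 16858 genes tested, 24.1% were called higher and 29.9% lower in the globin-rich libraries, together 54.0%, at a Benjamini-Hochberg adjusted p under 0.05 after TMM scaling. Of the 46 members, 23 were called higher and 5 lower, with a median log2 difference of 0.51 beside -0.12 over all genes. The count changed with the scaling. With library sizes that only leave out globin, an alternative chosen after seeing the data, 10 members were called higher and 19 lower, the median was -0.55, and that over all genes was -1.05.

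Under both scalings 10 members were called higher: Isg20, Rsad2, Isg15, Oas3, Oasl2, Irf7, Slfn5, Ifit2, Ifit1 and Ifi204. Of all genes, 9.68% were. The log2 difference of Isg20 was 6.01 ± 0.58 (SE; edgeR adjusted p = 1.81e-06), that of Rsad2 5.56 ± 0.58 (edgeR adjusted p = 3.25e-06) and that of Isg15 3.62 ± 0.52 (edgeR adjusted p = 0.00011). Oasl2, at 2.63 ± 0.16 (edgeR adjusted p = 1.14e-08), and Irf7, at 2.51 ± 0.20 (edgeR adjusted p = 2.09e-07), had smaller differences and smaller errors. Each is lower by about 1 on the log2 scale with the other scaling, for example 4.98 for Isg20 and 1.48 for Irf7.

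Cxcl9, Cxcl10, Iigp1, Bst2 and Ifi27l2a were called lower under both, as were 30.1% of all genes. Cxcl9 was at -5.21 ± 0.46 (edgeR adjusted p = 5.56e-07) and Bst2 at -1.65 ± 0.18. On the CPM scale 12 members were below in every globin-rich library, but Dhx58, Gbp7, Ifih1 and Usp18 among them were above 0 after TMM scaling and only Cxcl9, Cxcl10, Iigp1, Bst2 and Ifi27l2a were called lower. Xaf1 was called in opposite directions, at 0.36 after TMM scaling and -0.67 with the other. The RNA-binding and degrading effectors had 5 of 12 members higher and none lower under both scalings, and the sensors 1 of 7 higher, Ifi204. Of the 10 members higher under both, 9 had a promoter entry and 5 of these held an ISRE match (Rsad2, Isg15, Oas3, Ifit1 and Slfn5), while Isg20, Irf7, Oasl2 and Ifit2 did not. Of the 5 members lower under both, 3 had an entry and 2 of these held a match (Bst2 and Cxcl10). Among all members with an entry 65.7% did.

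**Figure D3:**
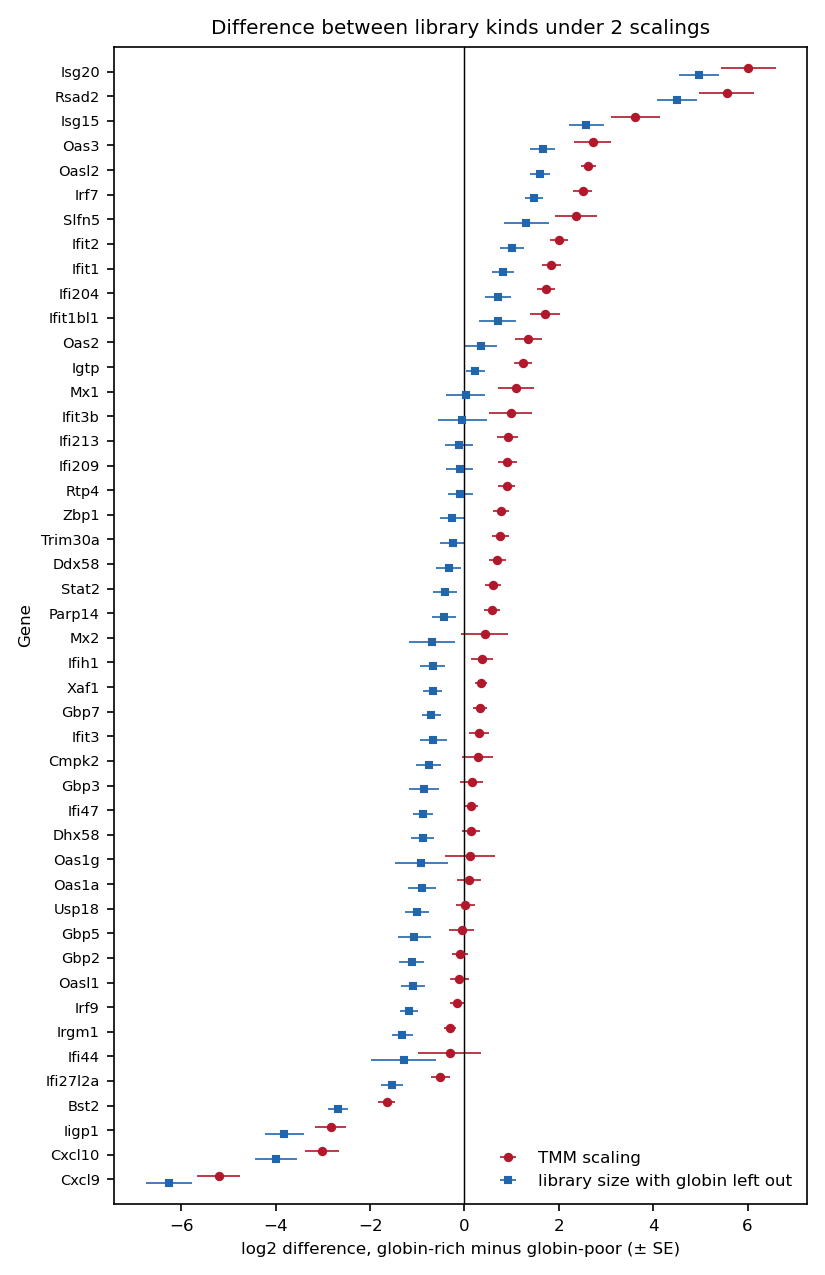
Points give each gene's log2 difference, globin-rich minus globin-poor libraries, with bars of 1 standard error, after TMM scaling (red circles) and with library size without globin (blue squares). The 10 genes from Isg20 to Ifi204 that were called under both lie to the right of 0 in both colours, and Cxcl9, Cxcl10, Iigp1, Bst2 and Ifi27l2a lie to the left.

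Within the globin-poor libraries the same leading genes were also higher under the blood label. The globin share was 4.90% to 5.90% there and 0.846% to 2.95% under the spleen label. A difference between the labels thus cannot be told from one of share. Rsad2 was 484 to 713 under the blood label and 63.3 to 258 under the spleen label, Isg20 262 to 292 against 32.5 to 174, and Isg15 162 to 224 against 25.9 to 86.9. Among the libraries labelled spleen these genes rose with the share. Among those labelled blood Isg15 did too, but Rsad2 and Isg20 did not. Oas3, Irf7, Oas1a and Cmpk2 were likewise higher under the blood label without overlap. These 7 of 46 members stand beside 9.48% of all genes. The other 7 that separated the labels there, Cxcl10, Ifi204, Ifi47, Ifit1bl1, Igtp, Xaf1 and Zbp1, were higher under the spleen label, as were 26.3% of all genes. Erythroid markers summed to 10424 to 12212 in the globin-poor libraries labelled blood and 921 to 5848 in those labelled spleen. In the globin-rich libraries they summed to 67588 to 101994. There 3 of the 12 genes lay above and 3 below in every library, beside 3.53% and 49.8% of all genes. The 14 platelet markers summed to 3395 to 10562 in the globin-rich libraries and 313 to 583 in the globin-poor ones. Beside 3.53% of all genes, all 14 platelet markers were higher in every globin-rich library. Among the globin-poor libraries they summed to 313 to 524 under the blood label and 462 to 583 under the spleen label. The part of either list in the levels of Rsad2, Isg20 and Isg15 was not tested, and in bulk RNA a change in the number of cells of a type cannot be told from a change in RNA per cell.

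Cmpk2 moved with Rsad2 among the globin-poor libraries but not between the kinds. It was 77.1 in blood WT 03, 112 in blood WT 04 and 84.1 in blood KO 04, against 21.6, 61.2 and 29.7 in spleen WT 01, spleen KO 01 and spleen KO 04. Among the globin-rich libraries it was 41.9 to 45.4 under the blood label and 18.3 to 34.6 under the spleen label. Ifi213, Ifit3b and Slfn5 were, like Cmpk2, higher under the blood label in every globin-rich library (7.22% of genes), and Igtp and Xaf1 higher under the spleen label (3.51%). Within each kind Cmpk2 was thus higher under the blood label, as 0.694% of all genes were in both. Spleen KO 03 was the lowest globin-rich library for Rsad2, Isg20, Isg15, Oas3, Irf7 and Cmpk2. It also had the lowest erythroid sum of the 6, at 67588, and the highest neutrophil marker sum of all 12 libraries, at 5163 against 586 to 1702 elsewhere. Of the 15 neutrophil markers, 3 lay above and 5 below in every globin-rich library, beside 3.53% and 49.8% of all genes. The part of either list in the levels of these genes was not tested.

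**Figure D4:**
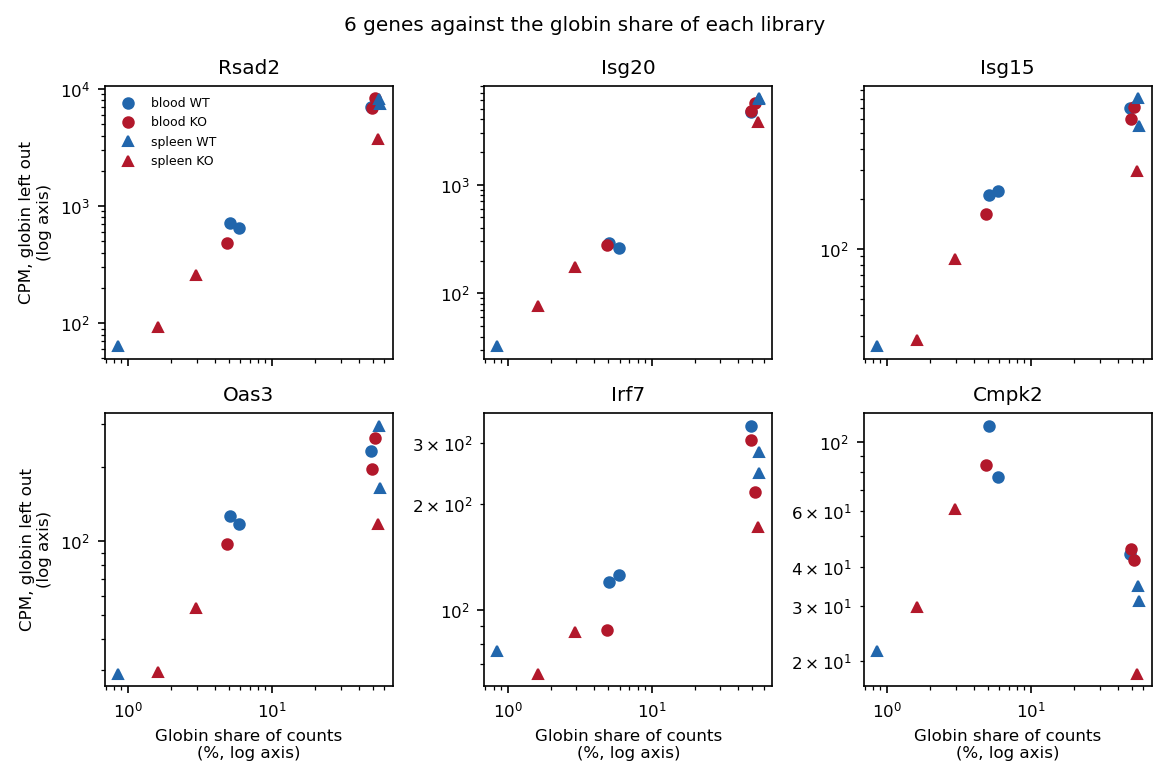
Each panel plots 1 gene in the 12 libraries, with the globin share of counts (%) on the x axis and CPM with globin left out on the y axis, both log axes. Circles are libraries labelled blood, triangles spleen, blue WT and red KO. Rsad2, Isg20 and Isg15 climb from 0.846% globin to the globin-rich libraries, and Cmpk2 peaks at 112 among the globin-poor libraries labelled blood.

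The tissue labels were compared over all libraries with kind and genotype as terms. In that fit 5 of 16858 genes were called (0.0297%), and 1 was a member, Xaf1, a pro-apoptotic partner of the inhibitor XIAP. Xaf1 (chr11:72301629-72313733, plus strand) was 23.2, 24.5 and 17.1 in blood WT 01, blood KO 02 and blood KO 03, against 36.8, 30.3 and 37.8 in spleen WT 02, spleen WT 04 and spleen KO 03. Among the globin-poor ones it was 31.3, 33.5 and 25.6 in blood WT 03, blood WT 04 and blood KO 04, against 71.2, 60.0 and 60.8 in spleen WT 01, spleen KO 01 and spleen KO 04. In both kinds every library labelled spleen was above every one labelled blood, as was so for Igtp and for 0.777% of all genes. Xaf1 was higher under the spleen label by 0.92 ± 0.13 on the log2 scale (edgeR adjusted p = 0.018), and Igtp differed by 0.96 ± 0.19 (edgeR adjusted p = 0.0981), which did not pass.

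The call of Xaf1 depended on the libraries and the test. Its edgeR adjusted p ranged from 0.0586 to 0.0764 when blood WT 01, blood WT 04, blood KO 02, blood KO 03, blood KO 04, spleen KO 01 or spleen KO 04 was left out, and was 0.161 with library sizes without globin, while the difference stayed at 0.88 to 0.96. Other tests called it with smaller adjusted p: 0.003 in edgeR with no filter, 2.6e-11 in DESeq2, 0.00633 in limma-voom and 0.00451 in limma-voom with the replicate block. B cell markers also differed by label, at 6073 to 7059 under blood and 10712 to 12366 under spleen among the globin-poor libraries, but at 4041 to 4987 and 2032 to 4939 among the globin-rich. The median of all 46 members between the labels was 0.00085, beside 0.0091 over all genes.

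The question of the design is how loss of NM1 altered expression in each tissue. In the libraries labelled blood, edgeR called none of 14939 genes (0.0%), and 24 genes but no member had an unadjusted p under 0.05. The members' median KO minus WT log2 difference was 0.13 with 27 of 46 above 0, beside -0.05 and 45.8% of all genes. The sum was 14400, 2843 and 3324 in blood WT and 14144, 16083 and 2315 in blood KO, so both groups spanned the kinds, with 1 globin-rich library in WT and 2 in KO. Ifit3, the member with the smallest p, was 14.4, 15.8 and 16.8 in WT and 8.94, 4.13 and 8.72 in KO (log2 difference -0.74 ± 0.38, edgeR adjusted p = 1), and Irgm1 differed by -0.38 ± 0.24. For Ifit3, Gbp2 and Gbp3 every KO library was below every WT library, as 3.37% of all genes were, and no member was above in every KO library, beside 0.117% of genes.

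In the libraries labelled spleen, edgeR again called none of 15362 genes (0.0%), with 370 genes and no member at an unadjusted p under 0.05. The members' median was -0.24 with 8 of 46 above 0, beside 0.02 and 51.6% of all genes. Here WT held 2 globin-rich libraries and KO 1, the reverse of blood, and the sum was 2210, 16747 and 15520 in WT and 2371, 9416 and 2141 in KO. Rsad2 differed by -2.68 ± 2.33, an error nearly as large as the difference, and each group held both kinds. The smallest p belonged to Xaf1, at -0.52 ± 0.26, and Irf7, at -1.83 ± 1.01 (edgeR adjusted p = 0.989 for both), and Xaf1 turned to 0.19 with library sizes without globin. No member was without overlap between genotypes, beside 1.3% of genes above and 1.27% below.

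The KO effect was compared between the labels as an interaction over all 12 libraries, in which 0.0% of 16858 genes were called by edgeR, with 171 genes and no member at an unadjusted p under 0.05. The members' median was -0.28 with 18 of 46 above 0, beside 0.15 and 57% of all genes. Oas3 was at -2.80 ± 1.54 and Isg15 at -3.33 ± 2.02 (edgeR adjusted p = 0.931 for both). The direction of the medians in all 3 of these comparisons turned with the scaling: with library sizes without globin they were -0.32 in blood, 0.39 in spleen and 0.71 for the interaction, with all genes at -0.40, 0.54 and 0.90. With kind as a term the blood median was -0.26 and that of the interaction 0.10.

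Genotype was also compared within each kind, which removes the globin split but mixes the tissue labels. Among the globin-rich libraries WT held 1 labelled blood and 2 labelled spleen, and KO the reverse; among the globin-poor it was the other way round. In the globin-rich libraries edgeR called none of 11728 genes (0.0%), with 799 genes and 3 members (Oasl2, Igtp and Ifit3) at an unadjusted p under 0.05. The 41 members tested had a median of -0.10 with 13 above 0, beside -0.0037 and 49.6% of all genes. Oasl2 was 92.1, 82.0 and 55.0 in WT and 65.4, 56.0 and 80.8 in KO (log2 difference -0.53 ± 0.23, edgeR adjusted p = 0.719). Igtp was 71.4, 138 and 136 in WT and 77.3, 38.5 and 131 in KO (-0.99 ± 0.44, edgeR adjusted p = 0.719).

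The genotypes overlapped for both genes. The median was -0.06 without spleen KO 03 and 0.21 with library sizes without globin. Every KO library was above every WT library for Usp18 and Oas1g, beside 7.43% of genes, and no member was below in every one, beside 4.73% of genes. Oas1g rested on 0 to 10 counts per library and was not among those tested.

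In the globin-poor libraries, the deeper kind, most members were slightly lower in KO. None of 16422 genes was called by edgeR (0.0%), with 138 genes and no member at an unadjusted p under 0.05. Of the 46 members 39 were below 0, with a median of -0.19, whereas all genes were centred at -0.0030 with 49.3% above 0. This count was 38 or 39 below 0 under 3 other scalings, DESeq2, limma-voom, no filter and tissue label as a term, and 35 of 42 with a stricter filter, but it moved when single libraries were left out. Without blood KO 04 it was 19 above 0 with a median of -0.08, and over the 6 such fits 5 to 19 were above 0.

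Oas2 had the smallest p in the globin-poor libraries, at 12.6, 24.5 and 16.9 in WT and 9.34, 12.3 and 15.2 in KO (log2 difference -0.58 ± 0.27, edgeR adjusted p = 1). Irgm1 was 82.3, 96.3 and 98.0 in WT and 65.1, 80.3 and 85.3 in KO (-0.28 ± 0.15, edgeR adjusted p = 1), and in both genes the groups overlapped. Rsad2 was at -0.78 ± 0.98 and Isg15 at -0.75 ± 0.94. The globin share was 5.90%, 5.07% and 0.846% in these WT libraries and 4.90%, 2.95% and 1.62% in KO, and its part in these differences was not tested. Usp18 and Irf9 were lower in every KO than in every WT library, beside 0.908% of genes, and no member was higher in every one, beside 2.12% of genes. No member was without overlap in the same direction in both kinds, as 0.179% of genes were above and 0.0963% below.

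**Figure D5:**
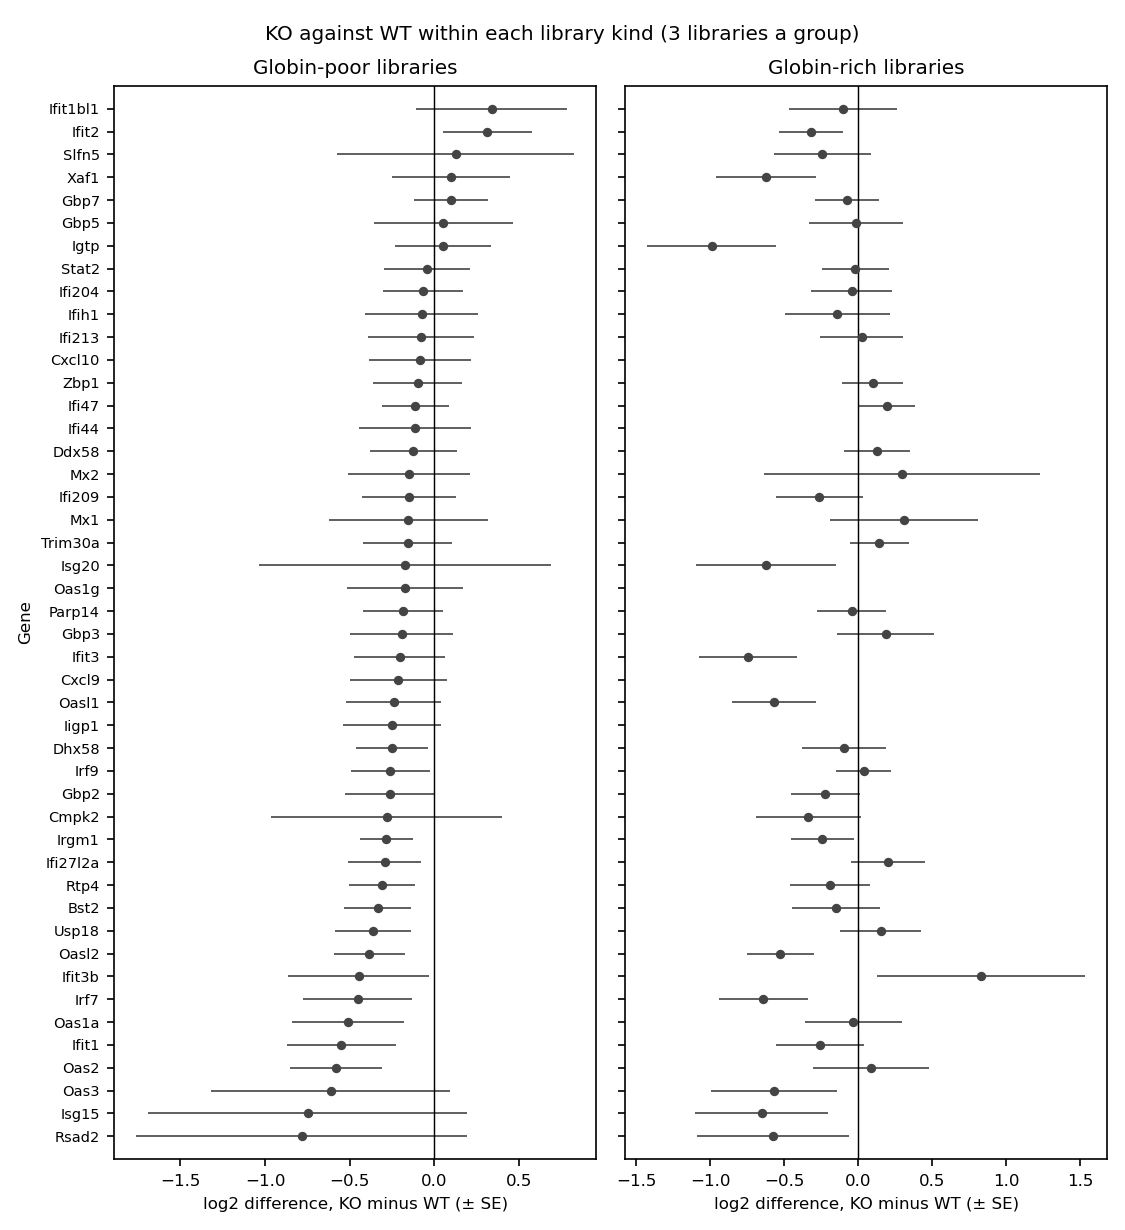
Points give each gene's log2 difference, KO minus WT, with bars of 1 standard error, in the 6 globin-poor (left) and the 6 globin-rich libraries (right), 3 libraries a group. In the left panel 39 of 46 genes lie below 0, and in the right panel 28 of the 41 genes tested do, with 5 genes left blank because their counts were too low to test.

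Over all 12 libraries, with kind and tissue label as terms, edgeR called none of 16858 genes for genotype (0.0%), with 753 genes and 3 members (Irf7, Oasl2 and Igtp) at an unadjusted p under 0.05. The members' median was -0.04 with 20 above 0, beside 0.03 and 53% of all genes. Irf7 was at -0.49 ± 0.19 and Oasl2 at -0.38 ± 0.15 (edgeR adjusted p = 0.844 for both). For Irf7 the mean was 288 ± 45.5 (SD, n = 3) in WT and 231 ± 67.6 in KO among the globin-rich libraries, and 107 ± 27.1 against 80.0 ± 12.3 among the globin-poor.

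Other genes of the interferon system were counted from lists of the pathway. Of 21 interferon genes, 8 had 0 counts in every library, Ifnb1 among them, and the most abundant, Ifng, was 0 to 0.894 in the globin-rich and 0.184 to 1.64 in the globin-poor libraries, and 20 of the 21 were too low to be tested. All 21 together summed to 4.98 in blood WT 01, 4.35 in spleen WT 02 and 3.40 in blood KO 02. With Ifng at 0.894 or less in each, most of these sums came from other interferon genes. The sum was 0.188 to 0.733 in the other globin-rich libraries and 0.230 to 1.64 in the globin-poor ones. Jak1 was 262 to 475 against 228 to 436, Ifngr1, a chain of the Ifng receptor, 62.5 to 159 against 110 to 218, and Jak2 66.4 to 112 against 60.5 to 105. Between the kinds, 9.68% of all genes were called higher and 30.1% lower under both scalings, and these shares stand beside each count that follows. None of the 9 receptor and kinase genes was called in the same direction under both. Of the 6 other transcription factors 1 was called lower under both: Irf8, a factor of myeloid and B cells, at 60.5 to 191 against 257 to 624. On the CPM scale Irf1 and Irf5 had lower means in the globin-rich libraries, at 56.1 to 129 against 119 to 260 and 52.7 to 129 against 114 to 256. After TMM scaling their log2 differences were -0.04 and 0.24 and neither was called, so the direction of Irf5 turned with the scaling.

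In the induction pathway, which leads from sensors to interferon genes, 1 of 14 genes was called higher and 2 lower under both scalings, and among 11 negative regulators tested likewise 1 and 2. Unc93b1, which carries endosomal Toll-like receptors, was 123 to 371 against 363 to 749, and Samhd1, a nucleotide hydrolase, was 355 to 768 against 466 to 829. Of 68 tested genes among 70 other interferon-stimulated genes, 3 were higher and 11 lower under both scalings, beside the 9.68% and 30.1% of all genes. B2m, the light chain of MHC class I, was 811 to 1715 against 1102 to 2006, and Ly6e, a membrane protein that limits virus entry, 418 to 1002 against 1449 to 2283. After TMM scaling B2m and Samhd1 were called higher in the globin-rich libraries, at log2 differences of 0.78 and 0.84. Neither was called with library sizes without globin. Ly6e and Unc93b1 were called lower with library sizes without globin and not called after TMM scaling. For genotype over all libraries, none of these lists had a gene called by edgeR, and the smallest p among them was that of Irf3 (log2 difference 0.39 ± 0.18, edgeR adjusted p = 0.844).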

How the data were processed

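Blood and spleen RNA libraries (12 in all, 3 in each of 4 groups) were analysed from raw counts per gene, deposited by the authors as 1 table per library. Per the submitters' processing notes, the tools were HTSeq, HISAT2 2.0.4, SAMtools 0.1.19, Trimmomatic 0.36 and FastQC, and the build was GRCm38 (mm10). Which annotation was counted, and whether strand was used, is not given in the sources used here. Identifiers were matched to GENCODE vM21, and 46091 of 46603 had a symbol. Groups follow the labels. The globin kinds, split at 25% of counts, follow the counts.

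CPM values are counts per M counts with globin genes left out of the total. Shares of counts have 95% Wilson intervals of at most ± 0.0319 percentage points, which cover counting error only. No library duplicated another (smallest chi-square per degree of freedom 7.17 over genes with at least 20 counts). Tests used edgeR 4.0.16 in R 4.3.3 (filterByExpr on each fit's design, TMM scaling, robust glmQLFit, glmQLFTest), with Benjamini-Hochberg adjustment over all genes tested and calls under 0.05. The script was tested on simulated data. Alternatives were other scalings and filters, DESeq2 1.42.0, limma-voom (limma 3.58.1), a replicate block, kind or label as a term, and leaving out each library. Tables and plots were made with Python 3.11.15, pandas 2.3.3 and matplotlib 3.10.9.

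Values in every library, or the range over the 6 libraries of a kind, were given for members that first reach 50% of the sum in any library, for up to 3 called members with the smallest p in each comparison or the 2 smallest where none was called, and for members without overlap in both kinds. Other pathway genes were named by highest mean CPM and smallest genotype p; other genes were named after their values were seen. The members and lists were chosen with earlier results of these data known. No protein sequences were used here.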

Additional observations from a re-analysis of the deposited data

Results flagged for a closer look

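Usp18, the protease that removes Isg15, stood out because its KO libraries lay above every WT library in the globin-rich kind and below every WT library in the globin-poor kind. It was 10.6, 8.70 and 8.55 CPM in WT and 12.0, 10.9 and 16.5 in KO among the globin-rich libraries, and 27.0, 26.8 and 21.1 in WT and 18.5, 20.9 and 20.4 in KO among the globin-poor. The difference between the kinds' KO effects, tested as an interaction chosen after seeing the data with tissue label as a term, was 0.66 ± 0.41 on the log2 scale (edgeR adjusted p = 0.676), so it did not pass. Of 18118 genes tested in that fit, 0 were called, and the smallest p of a member was that of Ifi47, at 0.66 ± 0.26 (edgeR adjusted p = 0.585).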

How the results depend on the processing

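No member was called for genotype under any alternative. Of the 293 values that answer a comparison, 261 kept their call or moved little. These include the genotype counts of 0 members called, which could only stay the same while no member was called. Library size without globin, chosen after seeing the data, moved the members' medians to -0.32 (blood), 0.39 (spleen), 0.71 (interaction), 0.21 (globin-rich) and -0.55 (kinds), and turned Xaf1 in spleen to 0.19; it left 0 members called between labels. Kind as a term gave -0.26 in blood and 0.10 for the interaction, limma-voom -0.0236 for the interaction, and a filter of at least 5 CPM 0.77 for the kinds. The ratio of member sums was 2.78 with all counts as the total. Leaving out 1 library at a time gave medians of -0.0931 to 0.34 in blood, -0.48 to -0.10 in spleen, and -0.58 to -0.0200 for the interaction, and 0 to 2 members called between labels. Between labels, members called were 6 with no filter, 2 with DESeq2 and 2 with limma-voom, where all genes called were 449, 405 and 595 against 5. Genes called within the globin-rich libraries were 121 with no filter, 31 with DESeq2 and up to 483 without blood KO 02, against 0; within the globin-poor DESeq2 called 5, and over all libraries no filter gave 55 and DESeq2 1. Between the kinds, library size without globin called 2231 genes higher and 10067 lower against 4062 and 5048. Taking the replicate number as a block, which sets WT beside KO libraries of the same number, the median was 0.12 in blood and -0.21 in spleen. With libraries of the same genotype and number as the block (limma-voom), the median was -0.0388 for the interaction. That block gave 3 members and 803 genes called between labels. For libraries of 1 genotype that share a number, the correlation was -0.73 and -0.58 across kinds but 0.75 and 0.56 within a kind, so it followed the kind and cannot show whether they came from 1 mouse. For WT and KO libraries of 1 tissue label that share a number, it was -0.63 and -0.70 across kinds and 0.75 and 0.54 within a kind. The block could not be fitted within a kind. The causes were not tested. Depth limits Cxcl9, Cxcl10, Iigp1, Oas1g and Ifi44 in the globin-rich libraries.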
